A study of Mus musculus with 8 samples.

Results

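Fatty acid oxidation in macrophages of fat was followed through the RNA of 35 genes that encode the enzymes, carriers and regulators of mitochondrial and peroxisomal β-oxidation. The genes were a named list, matched by symbol, and all 35 were found once each among the 41388 genes of every count table. Of these 35, 34 passed the low-count filter and were tested, and Ppara did not. The list holds 21 genes of mitochondrial steps, 7 of peroxisomal steps, 2 whose products work in both organelles, 3 acyl-CoA synthetases that activate fatty acids, and 2 nuclear receptors that act on genes of the pathway.

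The cells came from the epididymal white adipose tissue (eWAT, a visceral fat depot) of 4 male MitoFat mice on normal chow, whose ages the labels do not state. In MitoFat mice a mitochondria-targeted Dendra fluorescent protein (mtD2) is switched on in adipocytes by Cre from the adiponectin promoter, as the line is known from its published description, and every cell compared here came from such a mouse. The mtD2+ group holds 4 libraries of live CD45+ F4/80+ CD64+ macrophages that carried the reporter, the study's mark of mitochondria received from adipocytes. The mtD2- group holds 4 libraries of macrophages in the same gate without the reporter, 1 from each of the same mice. Each mouse therefore gave a pair of libraries, and the comparison asks how macrophages that received adipocyte mitochondria differ in RNA from those of the same animal that had not.

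In mitochondrial β-oxidation a fatty acid is first activated to its acyl-CoA, carried across the mitochondrial membranes as a carnitine ester, and then shortened in repeated rounds of dehydrogenation, hydration, a further dehydrogenation and thiolysis. Electrons from the first step of each round enter the respiratory chain through the electron transfer flavoprotein. Peroxisomes run a similar cycle on very long, branched and dicarboxylic acids with an oxidase in place of the first dehydrogenase, and hand the shortened chains to mitochondria. Macrophages take up lipid from neighbouring adipocytes, and their use of fatty acids as fuel is often linked to alternative activation. All these genes lie in the nuclear genome, so a mitochondrion taken up from another cell does not bring the genes with it. Whether any of their RNA came from adipocytes was not tested.

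The tables held between 18462287 and 27464399 counts per library. Levels below are CPM over the tested genes, scaled with TMM factors, and fold changes are log2 of mtD2+ over mtD2- with the mouse as a block. Of the marker lists of other cell types, only that of fibroblasts and adipose precursors held genes that passed an adjusted p of 0.05 in edgeR's quasi-likelihood test. Whether the RNA of any listed marker came from such cells or from the macrophages was not tested. Fibroblast and adipose precursor markers summed to 631.2 to 935.8 CPM in mtD2+ libraries, against 1883 to 4723 CPM in mtD2- libraries. The mtD2- library of mouse 4 held that highest sum, the other mtD2- libraries ended at 2053 CPM, and none of the 15 markers was at 0 in all libraries. Gsn alone made up most of each sum, at 391.7 to 666.5 CPM in mtD2+ and 966.8 to 3269 CPM in mtD2- libraries. The value of 3269 CPM was that of mouse 4. Of the 15 markers, 10 were lower in mtD2+ by the test, or 66.7%, where 1.78% of all tested genes were, and 0 were higher. The 2 most abundant, Gsn and Dcn, had log2 fold changes of −1.34 and −1.89 (SE 0.25 and 0.20, adjusted p = 0.0198 and 0.00269 in edgeR's quasi-likelihood test). None of 10 tested adipocyte markers passed, while 2 were higher at an unadjusted p of 0.05 and DESeq2 called 2. The 2 higher markers were 20% of the 10, where 11.8% of all tested genes were higher at that p and DESeq2 called 13%. Fold changes were positive for 8 of the 10 markers, with a median of 0.55. Their summed levels overlapped, with sums of 282.7 to 430.8 CPM in mtD2+ and 250.4 to 405.2 CPM in mtD2- libraries. Their 2 most abundant genes, Pnpla2 and Cfd, had log2 fold changes of −0.12 and 0.48 (SE 0.16 and 0.14, adjusted p = 0.70 and 0.0838). Adipoq, which marks adipocytes, stood at 6.29 to 16.8 CPM in mtD2+ and 5.93 to 11.2 CPM in mtD2- libraries. Mesothelial, endothelial, lymphocyte and NK, dendritic cell, and neutrophil and mast cell lists had 0 calls among 5, 6, 6, 5 and 2 tested genes. At an unadjusted p of 0.05 these lists held 1, 2, 0, 1 and 0 genes, and DESeq2 called 0, 2, 0, 1 and 0. Over all tested genes 11.8% were higher and 11% lower at that p, and DESeq2 called 13%. The sums of each list overlapped between the groups, with endothelial markers at 71.9 to 219.1 CPM in mtD2+ and 77.1 to 114.3 CPM in mtD2- libraries. Fabp4 made up most of the endothelial sums, at 61.2 to 187.9 CPM in mtD2+ and 67.1 to 96.3 CPM in mtD2- libraries. It also stands on the list of PPAR-responsive genes below. Dendritic cell markers summed to 174.7 to 215.3 CPM in mtD2+ and 130 to 213 CPM in mtD2- libraries, neutrophil and mast cell markers to 72.3 to 100.4 CPM in mtD2+ and 57.0 to 79.2 CPM in mtD2- libraries, with Ly6g and Ms4a2 at 0 in all. One gene carries each of these sums, Cd209a and Csf3r. Cd209a stood at 141.6 to 186.2 CPM in mtD2+ and 99.3 to 137.3 CPM in mtD2- libraries, positive in 4 of 4 mice with separate groups (log2 0.40, SE 0.14, adjusted p = 0.138). Csf3r averaged 76.2 CPM in mtD2+ and 66.1 CPM in mtD2- libraries. Mesothelial markers summed to 8.51 to 27.9 CPM in mtD2+ and 10.4 to 33.8 CPM in mtD2- libraries, lymphocyte and NK markers to 2.53 to 13.0 CPM in mtD2+ and 1.85 to 10.1 CPM in mtD2- libraries. Of the sort markers, Ptprc (CD45) and Fcgr1 (CD64) had log2 fold changes of 0.02 and −0.44 (SE 0.11 each, adjusted p = 0.938 and 0.0554), and Adgre1 (F4/80) fell by 0.55 (SE 0.12, adjusted p = 0.0336). Fcgr1 and Adgre1 were each lower in mtD2+ in 4 of 4 mice with separate groups. Fcgr1 passed under 5 of 14 other settings. The Adgre1 call was lost without mouse 1, 3 or 4 (adjusted p = 0.165, 0.16 and 0.0764), with fold changes of −0.67 to −0.50 over the 4 fits. The Gsn call was lost without mouse 1 or 3 (adjusted p = 0.0704 and 0.117), with fold changes of −1.614 to −1.005 over the 4 fits. With a mouse left out, 166 to 555 genes passed in all, against 767 with all 4 mice. In bulk libraries like these, fewer cells of a type and less RNA per cell cannot be told apart. The part of these markers in the values below was not tested.

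Across the fatty acid oxidation genes, RNA of the very-long-chain dehydrogenase Acadvl rose in mtD2+ macrophages, and RNA of the acyl-CoA synthetase Acsl5 and of the short-chain hydratase Echs1 fell. These were the 3 of 34 tested genes that passed an adjusted p of 0.05 in edgeR's quasi-likelihood test, 1 higher and 2 lower. That is 8.82% of the tested genes of the list, where 5.5% of all 13933 tested genes passed, and by direction 2.94% were higher and 5.88% lower, where 3.72% and 1.78% of all genes were. A count of 3 genes this close to the background share is not a result about the list. A gene that missed the threshold is not shown to be equal in the groups. Most fold changes of the list had a negative sign, 25 of 34, or 73.5%, with a median of −0.26, while the median over all tested genes was 0.00 and 49.9% of them were positive. At an unadjusted p of 0.05, 11 genes of the list were lower and 2 higher, or 32.4% and 5.88%, where 11% and 11.8% of all tested genes were. The list is more precisely measured than most genes, with a median SE of 0.16 against 0.23 over all tested genes.

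Signs were the same in all 4 mice for 12 genes on the lower side and 4 on the higher side. That is 35.3% and 11.8% of the tested genes of the list, where 16% and 16.3% of all tested genes moved one way in every mouse. The levels of the groups did not overlap for 4 genes, Acsl5, Echs1, Cpt2 and Decr2, or 11.8%, where 12.6% of all tested genes had separate groups, and all 4 were lower in mtD2+. Without the mouse as a block no gene of the list passed, where 1.56% of all tested genes did. With the Wald test of DESeq2 the calls were Acadvl on the higher side and Acsl5, Echs1, Cpt2 and Acat1 on the lower side, where 13% of all tested genes passed.

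**Figure D1:**
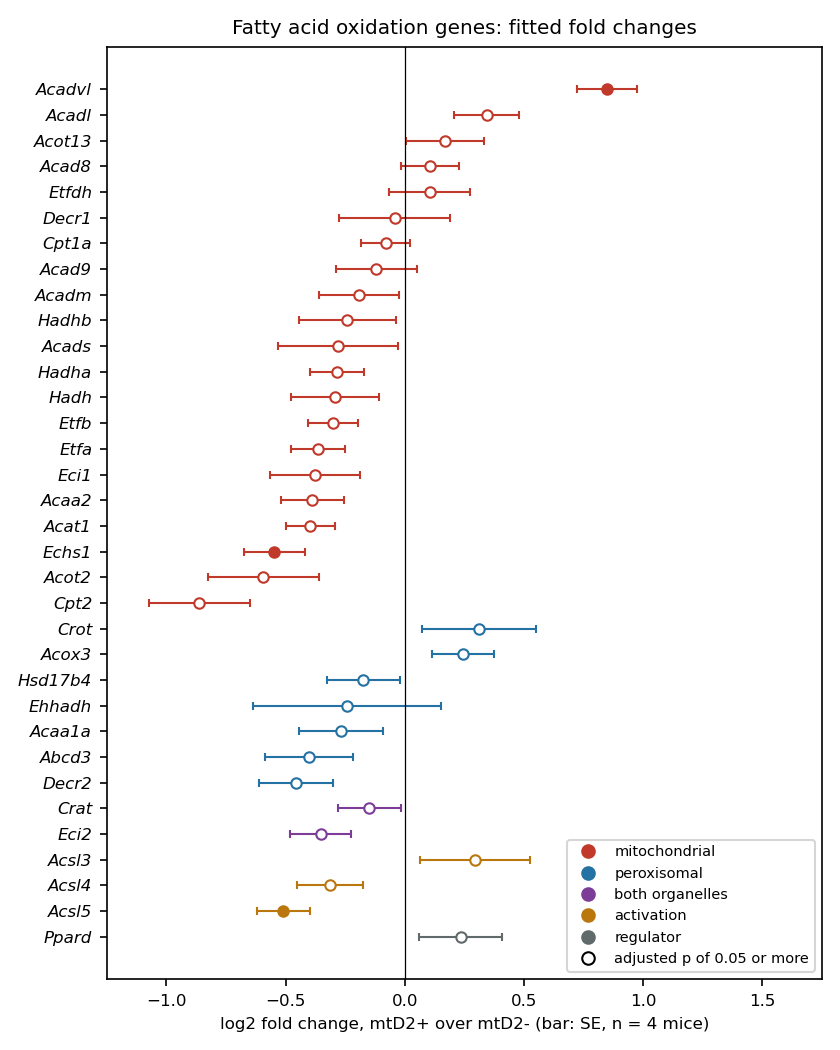
Fitted log2 fold changes (x axis, mtD2+ over mtD2-) of the 34 tested fatty acid oxidation genes, one per line, with bars of 1 SE over 4 mice. Colour gives the compartment and a filled point an adjusted p under 0.05: Acadvl at 0.85, Echs1 at −0.55 and Acsl5 at −0.51 are filled, and 25 of the 34 points lie left of 0.

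The sequences before the start sites of 4 genes are shown. They are Acadvl, which rose, Acsl5 and Echs1, which fell, and Cpt2, which had the most negative fold change but did not pass. Whether any motif in them bears on these fold changes was not tested. The sequences are the bases upstream of the RefSeq start on GRCm38.p6, 5′ to 3′ on the gene's strand, without any base inside an annotated exon of the gene. They lie at chr11:70015429-70015678 on the minus strand for Acadvl, chr19:55253119-55253368 on the plus strand for Acsl5, chr7:140116477-140116671 on the minus strand for Echs1 and chr4:107923611-107923839 on the minus strand for Cpt2. Capitals mark the nuclear receptor hexamer AGGTCA, the GC box GGGCGG and the CCAAT box, found on either strand.
Acadvl: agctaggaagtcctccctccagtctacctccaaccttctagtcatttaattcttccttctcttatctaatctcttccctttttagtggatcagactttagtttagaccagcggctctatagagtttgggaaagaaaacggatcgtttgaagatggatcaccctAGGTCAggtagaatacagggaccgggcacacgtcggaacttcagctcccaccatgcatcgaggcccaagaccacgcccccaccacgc
Acsl5: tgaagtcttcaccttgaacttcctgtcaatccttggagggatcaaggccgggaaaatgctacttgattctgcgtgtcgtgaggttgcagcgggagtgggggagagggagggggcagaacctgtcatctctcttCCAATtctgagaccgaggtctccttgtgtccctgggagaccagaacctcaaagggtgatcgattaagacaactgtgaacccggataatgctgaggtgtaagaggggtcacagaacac
Echs1: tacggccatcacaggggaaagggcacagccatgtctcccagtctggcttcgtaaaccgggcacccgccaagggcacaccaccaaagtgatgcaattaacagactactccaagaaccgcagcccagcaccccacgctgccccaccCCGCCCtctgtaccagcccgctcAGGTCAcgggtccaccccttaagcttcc
Cpt2: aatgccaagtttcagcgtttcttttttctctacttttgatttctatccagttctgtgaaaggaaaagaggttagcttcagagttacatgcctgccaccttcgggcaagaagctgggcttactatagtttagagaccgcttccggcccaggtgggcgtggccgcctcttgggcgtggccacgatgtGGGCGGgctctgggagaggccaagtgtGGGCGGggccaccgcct

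Acadvl and Echs1 each held 1 such hexamer, starting 87 and 83 bases before the RefSeq start on the gene's own strand. The printed stretches of Echs1 and Cpt2 hold 195 and 229 of the 250 bases before that start. The bases nearest the start are left out there, so positions do not count from the end of the printed stretch. Over the 250 bases before the start, 4 of the 28 genes of the list with a RefSeq promoter entry (Acadm, Echs1, Acadvl and Cpt1a) held the hexamer, or 14.3%, where 13.8% of 27025 promoters did. A GC box stood in 20 of the 28, or 71.4%, where 32.9% of all promoters held one, and a CCAAT box in 14 of the 28, or 50%, where 34.5% did. The set of all promoters includes genes that do not encode proteins. The DR1 element that PPAR receptors bind, a pair of hexamers 1 base apart, was spelled out in none of the 28 and in 0.037% of all promoters. The element TCAAGGTCA, bound by estrogen-related receptors, and the E-box CACGTG were also in none of the 28, where 0.366% and 6.05% of all promoters held them. These counts describe letters in a window and not sites in use. The other 7 genes of the list are Acaa2, Acad9, Acat1, Acot13, Crat, Decr1 and Hsd17b4.

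Fatty acids enter the pathway through acyl-CoA synthetases. Acsl5, which sits on the endoplasmic reticulum and the outer mitochondrial membrane (chromosome 19, 55253369 to 55296627 on GRCm38), had 51.4, 60.0, 59.1 and 55.1 CPM in mtD2+ libraries of mice 1 to 4, against 70.1, 80.2, 87.9 and 83.2 CPM in mtD2- libraries. Every mtD2+ value lay under every mtD2- value. The fold change was −0.51 (SE 0.11, adjusted p = 0.033), or 1.42-fold lower in mtD2+, with means of 56.4 ± 3.96 and 80.4 ± 7.54 CPM in mtD2+ and mtD2- (SD, n = 4 mice in the edgeR test). Leaving out mice 1 to 4 in turn gave adjusted p-values of 0.127, 0.0836, 0.147 and 0.0774 with fold changes between −0.54 and −0.48, so the call needed all 4 mice.

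The other 2 synthetases did not pass. Acsl4, which favours arachidonate, stood at 68.1 ± 10.2 CPM in mtD2+ and 85.0 ± 15.5 CPM in mtD2- (log2 −0.31, SE 0.14, adjusted p = 0.22), and its sign was positive in mouse 2. Acsl3, found on the endoplasmic reticulum and lipid droplets, stood at 26.2 ± 5.54 CPM in mtD2+ and 21.5 ± 5.69 CPM in mtD2- (log2 0.29, SE 0.23, adjusted p = 0.488), a positive value that came mostly from mouse 3 (log2 ratio 1.18, against −0.08 to 0.10 in the other mice). Acsl3 shares 5.6% of its exon length with Utp14b on the same strand.

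The carnitine shuttle carries acyl groups into the matrix. Cpt1a, the outer-membrane transferase that sets the rate of entry, stood at 143.7 ± 21.7 CPM in mtD2+ and 151.9 ± 22.4 CPM in mtD2- (log2 −0.08, SE 0.10, adjusted p = 0.689). Its inner-membrane partner Cpt2 (chromosome 4, 107903981 to 107923610), which returns the acyl group to coenzyme A, had 10.4, 18.4, 13.4 and 11.3 CPM in mtD2+ libraries of mice 1 to 4, against 23.0, 25.03, 19.4 and 28.5 CPM in mtD2- libraries. The groups did not overlap, and the ratio was below 0 in all 4 mice. Its fold change of −0.86 (SE 0.21) was the most negative of the list, with an adjusted p of 0.0508 that missed the threshold. It passed under 6 of 14 other settings and never with a mouse left out, where its fold change lay between −1.004 and −0.705. The ratio of Cpt2 to Cpt1a within a library, per kilobase and so free of the scaling, was 0.146, 0.199, 0.152 and 0.165 in mtD2+ libraries, against 0.276, 0.254, 0.221 and 0.416 in mtD2- libraries. That ratio was chosen after the values were seen.

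Crat and Crot make short-chain and medium-chain carnitine esters. Crat, present in mitochondria and peroxisomes, stood at 81.4 ± 8.83 CPM in mtD2+ and 90.7 ± 13.6 CPM in mtD2- (log2 −0.15, SE 0.13, adjusted p = 0.549). Crot, the peroxisomal enzyme, stood at 43.0 ± 6.52 CPM in mtD2+ and 35.6 ± 11.0 CPM in mtD2- (log2 0.31, SE 0.24, adjusted p = 0.481). The mtD2- library of mouse 4 held 19.8 CPM of Crot, against 37.2 to 45.2 CPM in the other mtD2- libraries, and without that mouse its fold change was 0.00.

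The first dehydrogenation is shared out by chain length. Acadvl, the inner-membrane enzyme for the longest chains (chromosome 11, 70010183 to 70015411), had 155.7, 165.5, 102.3 and 285.9 CPM in mtD2+ libraries of mice 1 to 4, against 102.6, 77.4, 64.8 and 139.6 CPM in mtD2- libraries. It was higher in mtD2+ in each mouse, while the groups overlapped because mice differed from each other, with mouse 4 highest and mouse 3 lowest in both. The fold change was 0.85 (SE 0.12, adjusted p = 0.00813), or 1.80-fold, the highest fold change and the smallest p of the list. It passed whichever mouse was left out (0.77 to 0.93) and under every other setting tried except the model without the mouse as a block, where a fold change of 0.88 had an SE of 0.30 and an adjusted p of 0.161.

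Acadvl shares exon sequence with another gene. Of its 2686 bases of exon, 42.9% overlap exons of Dvl2, a Wnt signalling gene on the opposite strand (chromosome 11, 70000595 to 70012301). The SMARTer Ultra-Low kit named in the labels does not mark strand, so reads from the shared 1151 bases cannot be told apart. Dvl2 stood at 34.0, 29.5, 30.9 and 54.6 CPM in mtD2+ libraries, against 21.1, 25.9, 11.6 and 40.1 CPM in mtD2- libraries (log2 0.68, SE 0.21, adjusted p = 0.0933). It was thus positive in all 4 mice as Acadvl was, at 5585 counts in all libraries together against 24527 for Acadvl, and its part in the Acadvl value was not tested.

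The other dehydrogenases did not pass. Acadl, for long chains, stood at 68.5, 73.9, 69.1 and 31.7 CPM in mtD2+ libraries of mice 1 to 4, against 48.6, 48.1, 59.6 and 31.1 CPM in mtD2- libraries (log2 0.34, SE 0.14, adjusted p = 0.182). Mouse 4 was low in both populations and had a ratio near 0. Acadm, the medium-chain enzyme, and Acads, the short-chain enzyme, had fold changes of −0.19 and −0.28 (SE 0.17 and 0.25, adjusted p = 0.541 and 0.551) with signs that differed between mice. Acads in the mtD2- library of mouse 4 was at 37.0 CPM, against 14.1 to 21.8 CPM in the other mtD2- libraries, and without that mouse its fold change was −0.02.

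Acad9, which also helps to assemble respiratory complex I, stood at 21.5 ± 5.04 CPM in mtD2+ and 23.0 ± 1.19 CPM in mtD2- (log2 −0.12, SE 0.17). Acad8, which oxidises isobutyryl-CoA from valine rather than fatty acids, stood at 45.2 ± 9.27 CPM in mtD2+ and 42.3 ± 9.56 CPM in mtD2- (log2 0.10, SE 0.12). Their adjusted p-values were 0.723 and 0.661.

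All 6 genes of the later mitochondrial steps had a negative fold change, from −0.55 to −0.24, where 73.5% of the list did. Of the 6, 50% were lower in all 4 mice, where 35.3% of the list and 16% of all tested genes were. By the test 1 of them passed, on the lower side, where 1.78% of all tested genes did. A count of 1 gene is not a result about these steps. Echs1, the hydratase for short chains that also serves valine breakdown (chromosome 7, 140105710 to 140116476), fell by 0.55 on the log2 scale (SE 0.13, adjusted p = 0.0433), or 1.46-fold lower in mtD2+. It was at 44.0, 46.6, 38.0 and 45.1 CPM in mtD2+ libraries of mice 1 to 4, against 60.3, 72.0, 65.3 and 56.6 CPM in mtD2- libraries, with no overlap. Leaving out mice 1 to 4 gave adjusted p-values of 0.139, 0.13, 0.176 and 0.0502 with fold changes between −0.62 and −0.46, so this call too needed all 4 mice, and with upper quartile scaling the adjusted p was 0.0523.

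Acat1, the thiolase of acetoacetyl-CoA in ketone and isoleucine metabolism, was at 122.9, 169.1, 114.9 and 148.7 CPM in mtD2+ libraries of mice 1 to 4, against 175.8, 225.2, 147.9 and 181.7 CPM in mtD2- libraries. It was lower in mtD2+ in each mouse by a similar amount, with log2 ratios of −0.52 to −0.29, and its fold change of −0.40 (SE 0.10) had an adjusted p of 0.06. It passed under 4 of 14 other settings, DESeq2, limma voom, robust edgeR and library totals alone. Acaa2, the thiolase for medium and long chains, stood at 79.1 ± 19.6 CPM in mtD2+ and 101.4 ± 6.03 CPM in mtD2- (log2 −0.39, SE 0.13, adjusted p = 0.125), with mouse 2 at a ratio of 0.02.

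Hadha and Hadhb encode the subunits of the trifunctional protein, which runs the last steps for long chains, and their genes lie head to head on chromosome 5. Hadha stood at 88.7 ± 5.62 CPM in mtD2+ and 108.4 ± 11.8 CPM in mtD2- (log2 −0.29, SE 0.11, adjusted p = 0.18), lower in 4 of 4 mice. Hadhb had a like fold change of −0.24 (SE 0.20, adjusted p = 0.526) but far fewer reads, 12.7 ± 1.53 CPM in mtD2+ and 15.2 ± 3.08 CPM in mtD2-. Per kilobase, Hadhb was 0.117 ± 0.0185 of Hadha in mtD2+ and 0.114 ± 0.0227 of it in mtD2- libraries, values that differed by less than their SD over libraries. Hadh, the hydroxyacyl-CoA dehydrogenase for medium and short chains, had a fold change of −0.29 (SE 0.18, adjusted p = 0.389) and a positive ratio in mouse 2.

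Set within each library, the proportion of Acadvl RNA to Hadha RNA differed between the groups. Acadvl per kilobase was 3.45, 4.05, 2.28 and 6.00 times Hadha in mtD2+ libraries of mice 1 to 4, against 1.69, 1.41, 1.39 and 2.49 times Hadha in mtD2- libraries. The ratio was higher in mtD2+ in each of the mice, and it does not depend on how libraries are scaled. This pair, too, was chosen after the values were seen, and the overlap of Acadvl with Dvl2 applies to it.

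**Figure D2:**
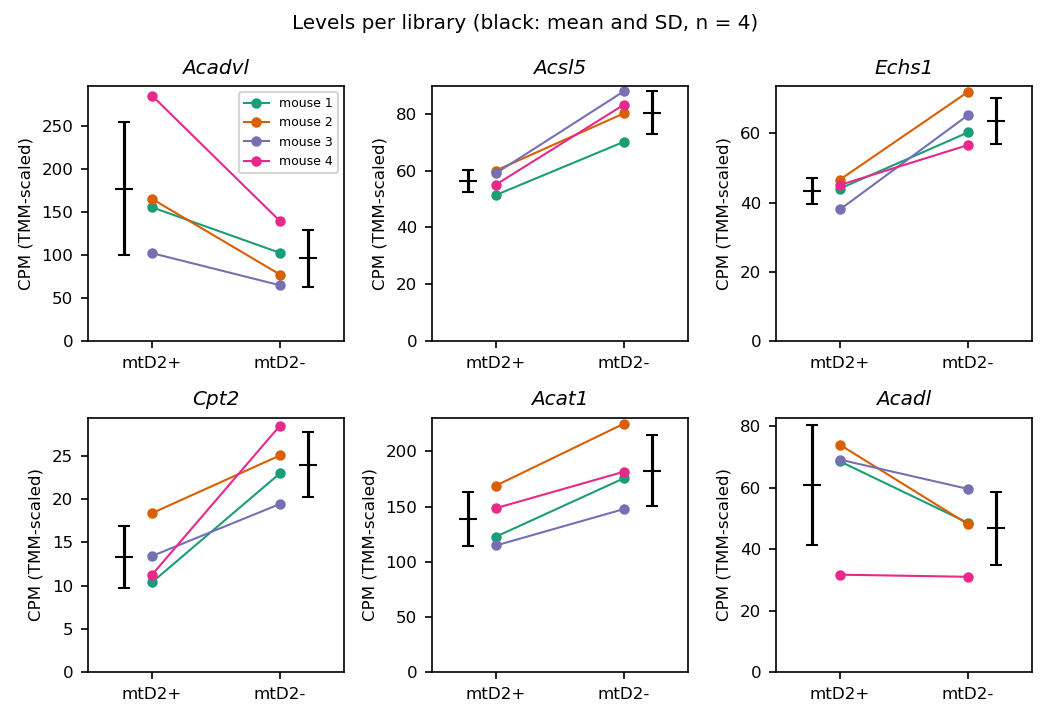
CPM (y axis, TMM-scaled) in each library of 6 genes, with mtD2+ left and mtD2- right, a line for each mouse and black bars for the mean and SD of 4 libraries. Acadvl is higher in mtD2+ in every mouse while the groups overlap, Acsl5, Echs1 and Cpt2 have separate groups, Acat1 is lower in mtD2+ in every mouse, and Acadl of mouse 4 is near 31 CPM in both.

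Unsaturated chains need helper enzymes, an isomerase and a dienoyl-CoA reductase, in each organelle. The mitochondrial isomerase Eci1 stood at 17.8 ± 2.77 CPM in mtD2+ and 23.1 ± 3.40 CPM in mtD2- (log2 −0.38, SE 0.19, adjusted p = 0.274). Eci2, found in both organelles, stood at 37.7 ± 8.63 CPM in mtD2+ and 47.6 ± 5.54 CPM in mtD2- (log2 −0.35, SE 0.13, adjusted p = 0.147), and both isomerases were lower in mtD2+ in 4 of 4 mice. The peroxisomal reductase Decr2 had a fold change of −0.46 (SE 0.16, adjusted p = 0.124) with separate groups, at 24.1 to 37.1 CPM in mtD2+ and 39.6 to 45.5 CPM in mtD2-. The mitochondrial reductase Decr1 did not pass (log2 −0.04, SE 0.23, adjusted p = 0.937), with ratios from −0.64 to 0.41 across the mice.

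The electron transfer flavoprotein is a dimer of the products of Etfa and Etfb, and Etfdh encodes the oxidoreductase that passes its electrons to ubiquinone. Etfa stood at 57.0 ± 10.6 CPM in mtD2+ and 73.0 ± 10.5 CPM in mtD2- (log2 −0.36, SE 0.11, adjusted p = 0.0972). Etfb stood at 119.1 ± 27.6 CPM in mtD2+ and 145.7 ± 26.3 CPM in mtD2- (log2 −0.30, SE 0.10, adjusted p = 0.13). Both subunits of the dimer were lower in mtD2+ in 4 of 4 mice without passing the test. Etfdh had a fold change of 0.10 (SE 0.17, adjusted p = 0.763) and ratios from −0.30 to 0.67.

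Of the thioesterases, which release free fatty acid from acyl-CoA, Acot2 of the matrix stood at 19.3 ± 5.84 CPM in mtD2+ and 28.5 ± 5.88 CPM in mtD2- (log2 −0.59, SE 0.23, adjusted p = 0.176). Mouse 4 had a ratio of −1.43 and mouse 3 of 0.01. Acot2 is close in sequence to Acot1, which held at most 0.74 CPM in a library, so the split of reads between them is uncertain. Acot13, a thioesterase associated with mitochondria, had a fold change of 0.17 (SE 0.16, adjusted p = 0.589).

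None of the 7 peroxisomal genes passed edgeR's test, and 1 of them, Decr2, had an unadjusted p under 0.05 on the lower side, where 5.5% of all tested genes passed and 11% were lower at that p. Counts of 0 and 1 of 7 are near those shares. DESeq2 and limma voom called none of the 7 either, where they called 1816 and 1066 of all 13933 tested genes. Abcd3, the membrane transporter that brings acyl-CoA into the peroxisome, stood at 19.9 ± 6.28 CPM in mtD2+ and 25.4 ± 3.02 CPM in mtD2- (log2 −0.40, SE 0.19, adjusted p = 0.239), lower in 4 of 4 mice. Acox3, an oxidase for branched chains, stood at 76.1 ± 10.8 CPM in mtD2+ and 64.1 ± 7.56 CPM in mtD2- (log2 0.24, SE 0.13, adjusted p = 0.31).

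The bifunctional enzymes of the peroxisome carry out the middle steps of its cycle. Hsd17b4 stood at 57.5 to 82.1 CPM in mtD2+ and 53.8 to 90.5 CPM in mtD2- (log2 −0.17, SE 0.15, adjusted p = 0.543). Ehhadh was scarce, between 1.52 and 6.02 CPM in mtD2+ and between 1.93 and 10.3 CPM in mtD2- libraries (log2 −0.24, SE 0.39, adjusted p = 0.763), and its sign turned to 0.10 without mouse 1. Acaa1a, the thiolase that ends the cycle, stood at 15.8 ± 2.58 CPM in mtD2+ and 19.0 ± 2.43 CPM in mtD2- (log2 −0.27, SE 0.17, adjusted p = 0.405). It was lower in mtD2+ in 4 of 4 mice. Its near-identical copy Acaa1b held at most 0.74 CPM. Of the exon length of Acaa1a, 6.57% overlaps Myd88 on the opposite strand. Myd88 had 12522 counts in all libraries together against 3259 for Acaa1a, and its part in the Acaa1a value was not tested.

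The receptors that act on the pathway differed in level. Ppara, the main fatty acid receptor of liver, had 0 counts in 7 libraries, all mtD2+ libraries among them, and 8 counts (0.37 CPM) in the mtD2- library of mouse 4. A count of 0 allows up to 3 counts, or 0.111 to 0.17 CPM in the mtD2+ libraries, for counting error only. Ppard was expressed in every library, at 17.03 to 22.8 CPM in mtD2+ and 14.3 to 18.1 CPM in mtD2- (log2 0.24, SE 0.17, adjusted p = 0.465), with ratios of 0.29, 0.00, 0.32 and 0.33 in mice 1 to 4.

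Mitochondrial and peroxisomal genes were set side by side as the median of their fold changes, a description with no test. The median was −0.28 over the 21 mitochondrial genes and −0.24 over the 7 peroxisomal genes. Negative signs made up 16 of the 21 and 5 of the 7. Counting Eci2 and Crat with either organelle left both medians at these values.

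Mouse by mouse, the medians of the log2 ratios were −0.37, 0.01, −0.05 and −0.27 for the mitochondrial genes and −0.24, −0.16, −0.23 and 0.09 for the peroxisomal genes in mice 1 to 4. The order of the organelles was therefore not the same in all mice, and the spread between mice (SD 0.18 and 0.15) was wider than the gap between the medians. Mouse 1 had 29 of the 34 genes below 0, mouse 2 had 18, mouse 3 had 20 and mouse 4 had 22. The summed level of the mitochondrial genes was 1163, 1430, 1101 and 1284 CPM in mtD2+ libraries, against 1382, 1440, 1225 and 1336 CPM in mtD2- libraries. That of the peroxisomal genes was 241.4, 290.3, 239.5 and 251.6 CPM in mtD2+ libraries, against 280.1, 259.9, 285.6 and 239.4 CPM in mtD2- libraries. Both sums overlapped between the groups. For 22 of the 34 genes, mouse 2 gave the highest level among the mtD2+ libraries.

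**Figure D3:**
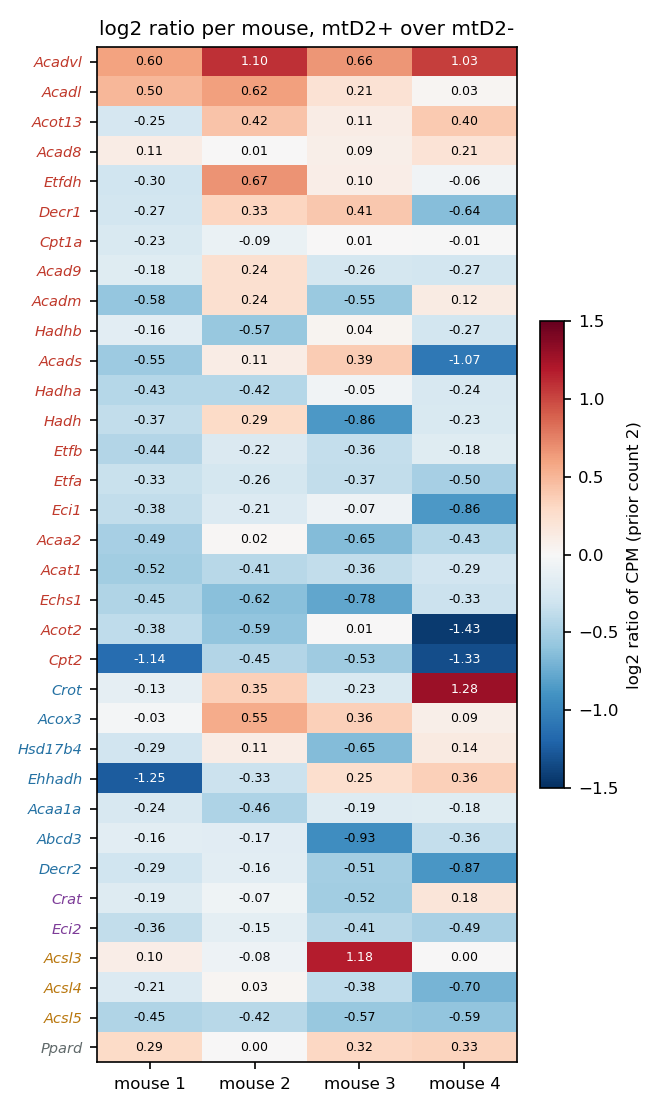
Log2 ratio of mtD2+ over mtD2- in each mouse (columns) for the 34 tested genes (lines), red for higher and blue for lower in mtD2+. Gene names are red for mitochondrial, blue for peroxisomal, purple for both, ochre for activation and grey for the receptor. Acadvl is red in all mice (0.60 to 1.10), Cpt2, Echs1, Acat1, Etfa, Etfb and Acsl5 are blue in all, and many others change colour between mice.

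The order of the levels, given as CPM per kilobase of exon length, ran from Etfb at the top to Ehhadh at the bottom in both populations. Etfb was at 105 ± 24.2 in mtD2+ and 128 ± 23.1 in mtD2-, and Ehhadh at 1.40 ± 0.643 in mtD2+ and 1.76 ± 1.19 in mtD2-. Acadvl stood at rank 2 in mtD2+ (66.0 ± 28.9) and rank 6 in mtD2- (35.8 ± 12.3). In mtD2+ its spread overlapped that of its neighbours Acaa2 (52.2 ± 12.9) and Acot13 (43.4 ± 7.65). In mtD2- Acaa2 was at rank 2 with 66.9 ± 3.98, and Acat1, Etfa, Acot13, Acadvl and Cpt1a followed between 48.6 and 35.3 with overlapping spreads. Cpt2 was at rank 27 in mtD2+ and rank 22 in mtD2-. The lengths are those of the deposited tables, which join all annotated exons of a gene, so a gene with long, rarely used exons is set too low. For Acadvl, 42.9% of that length overlaps Dvl2, and how reads there were counted is not stated, so its level and rank are uncertain.

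**Figure D4:**
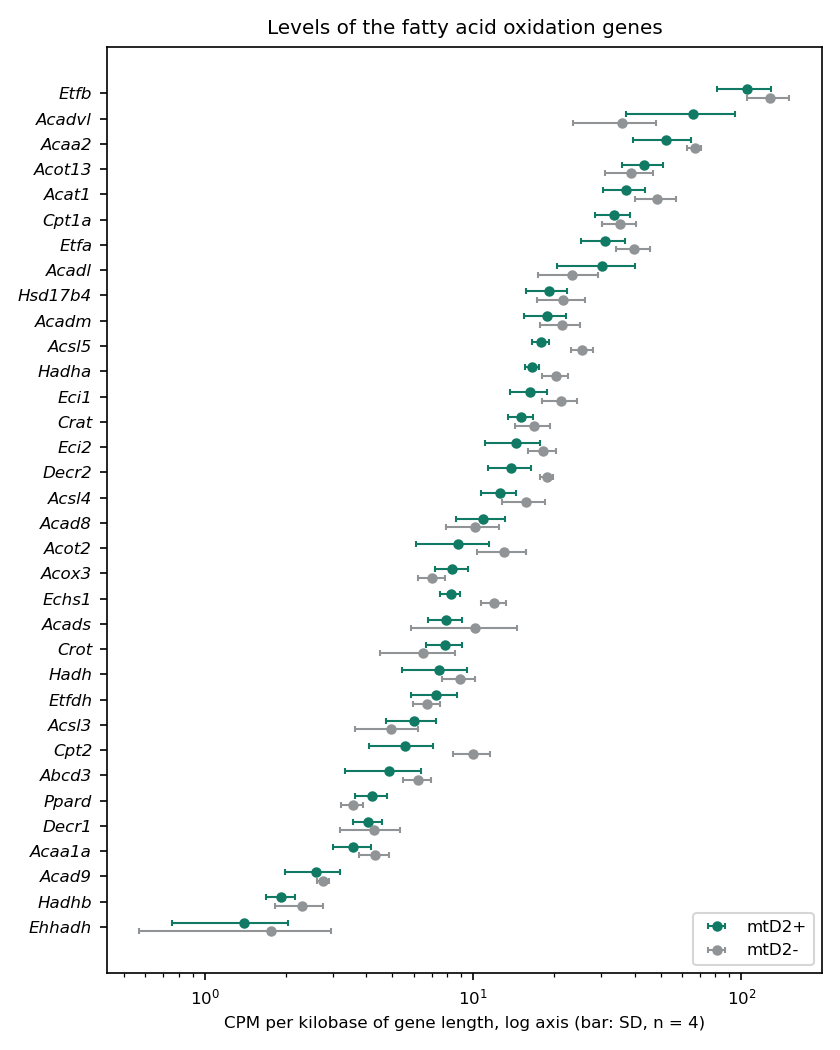
Mean CPM per kilobase (x axis, log scale) of the 34 tested genes, ordered by the level in mtD2+, with mtD2+ above mtD2- on each line and bars of 1 SD over 4 libraries. The genes span Etfb at 105 to Ehhadh at 1.40 in mtD2+, and Acadvl is at 66.0 in mtD2+ and 35.8 in mtD2-.

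The list of other fatty acid oxidation genes held 42 genes, of which 33 were tested. The median fold change was −0.09, and 19 signs, or 57.6%, were negative. By the test 1 gene rose and 0 fell, or 3.03% and 0%, where 3.72% and 1.78% of all tested genes did. That 1 call was lost without the mouse as a block and on leaving out any 1 mouse. At an unadjusted p of 0.05 edgeR had 2 of the 33 higher and 5 lower. That is 6.06% and 15.2%, where 11.8% and 11% of all tested genes were. DESeq2 called 3, where it called 13% of all tested genes. Limma voom called 2, where it called 1066 of all 13933 tested genes.

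Of 19 peroxisome biogenesis genes, 0 passed edgeR's test, with a median of −0.23 and 15 negative signs. At an unadjusted p of 0.05, 2 were lower and 2 higher, or 10.5% each way, near the 11% and 11.8% of all tested genes. DESeq2 called 1, where it called 13% of all tested genes. Limma voom called 0, where it called 1066 of all 13933 tested genes. Among the genes of smallest p were Pex2 at −0.52 (SE 0.14, adjusted p = 0.069) and Pex13 at 0.43 (SE 0.15, adjusted p = 0.131). Pex19 was at −0.36 (SE 0.14, adjusted p = 0.183).

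Of 9 other genes known to respond to PPAR receptors, 8 were tested, and 1 rose. That is 12.5%, where 3.72% of all tested genes were higher, and a count of 1 gene is not a result about the list. Plin2, which coats lipid droplets, was at 1602, 2020, 1793 and 1798 CPM in mtD2+ libraries of mice 1 to 4, against 1111, 1167, 1069 and 1311 CPM in mtD2- libraries. The groups did not overlap, and the fold change was 0.63 (SE 0.11, adjusted p = 0.0134). The call was lost on leaving out mouse 1, 2 or 3 (adjusted p = 0.0733, 0.0535 and 0.0969), with fold changes of 0.58 to 0.69 over the 4 fits. The median of the 8 was 0.14, with 4 signs each way.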

How the data were processed

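The authors deposited 1 table per library with whole-number counts, CPM, RPKM and a gene length. The deposited counts are raw reads per gene. The deposited CPM was the count over the library total, and the deposited RPKM was that CPM per kilobase, checked on every library, and neither was used. Per the submitters' processing notes the tools were bcl2fastq, STAR 2.0.4b, Subread and featureCounts 1.45, with build GRCm38. The options of these tools, strand setting included, were not stated. Symbols came from the GENCODE annotation of GRCm38 (40254 identifiers matched, 1134 not) and promoters from RefSeq.

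Counts were tested with edgeR 4.0.16 (R 4.3.3) by its quasi-likelihood F test over 13933 genes kept by its expression filter (minimum count 10, minimum total 15, proportion 0.7), with TMM factors, mouse and group, and Benjamini-Hochberg adjustment over all genes. SE is the fold change over the square root of F, and ratios per mouse use a prior count of 2. The test was tried on simulated counts. DESeq2 1.42.0 and limma 3.58.1 served as alternatives. The labels name the mouse of each library, and the design text calls the comparison pair-wise, so the pairing comes from the animals. Across genes, the deviations of a mouse's pair from the group means correlated at 0.039, 0.07, 0.145 and 0.251 in mice 1 to 4. The highest correlations of the mtD2- library with the mtD2+ library of another mouse were 0.058, 0.025, 0.014 and −0.01, so for mouse 1 this was above its own pair's. Members and lists were chosen with earlier results of these data known. All genes of the list are named. Of the lists of other oxidation, biogenesis and PPAR-responsive genes, those called are named, or else the 4 of smallest p, except that 2 genes are not reported here. Of the marker lists, the sort markers and the 2 most abundant genes of the fibroblast and adipocyte lists are named. Dvl2, Utp14b, Myd88, Acot1, Acaa1b, Adipoq, Fabp4, Cd209a, Csf3r, Ly6g and Ms4a2 were added after values were seen.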

Additional observations from a re-analysis of the deposited data

Results flagged for a closer look

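In 94 groups of 4 libraries, the highest or lowest library was compared with the rest of its group by Dixon's ratio. Chance flags about 1 group in 20, and 6 of the 94 stood out. For Acadl the mtD2+ library of mouse 4 was at 31.7 CPM, under the 68.5 to 73.9 CPM of the other mtD2+ libraries. The mtD2+ library of mouse 2 stood above its group for Acad9, at 29.0 CPM against 18.1 to 19.7 CPM in the others, and for Hsd17b4, at 82.1 CPM against 57.5 to 61.3 CPM. The mtD2- library of mouse 4 stood apart for Pex13 (21.3 CPM, against 31.5 to 32.2 CPM), Cfd (82.6 CPM, against 51.4 to 54.0 CPM) and Gsn (3269 CPM, against 966.8 to 1094 CPM).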

How the results depend on the processing

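Over 14 other settings, 34 genes gave 476 values, of which 449 kept their direction and their side of the threshold, 12 lost a call, 10 gained one and 5 changed sign. Without the mouse as a block 0 genes of the list were higher and 0 lower, and 0 other oxidation genes were higher. With library totals alone the genes of the list called lower were 4, with DESeq2 4, with limma voom 4 and with upper quartile scaling 1. In either direction these settings called 756, 1816, 1066 and 787 of all 13933 tested genes, against 767 in the main fit. The counts for DESeq2 and limma voom thus stand beside more calls over all genes. DESeq2 called 2 other oxidation genes lower, 1 biogenesis gene and 2 PPAR-responsive genes. One other oxidation gene was lower without the low-count filter (1) and with limma voom (1). Without that filter 1051 of 24020 genes passed. On leaving out each mouse the genes of the list called lower were 0 to 0, other oxidation genes higher 0 to 0, and PPAR-responsive genes called 0 to 1. On leaving out each mouse the sign turned for Decr1 (−0.187 to 0.157, positive without mouse 1 at 0.036), Ehhadh (−0.453 to 0.1), Etfdh (−0.084 to 0.24), Crot (−0.001 to 0.504), Ptprc (−0.063 to 0.063) and Pnpla2 (−0.32 to 0.009). With library totals alone Ptprc was at −0.038. The causes were not tested. The median of the list lay between −0.31 and −0.21 in every setting. Over all genes, 67.7% of calls were higher, against 53.8% with library totals alone. Counting noise limits Ehhadh and Ppara most.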
